A study of Mus musculus with 3 samples.

Results

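The 10 genes described here belong to the BMP (bone morphogenetic protein) pathway and were chosen by name. They are the inhibitor of differentiation genes Id1, Id2, Id3 and Id4, the ligand gene Bmp4, the signal transducer genes Smad1 and Smad5, the inhibitory SMAD gene Smad6, and the homeobox genes Msx1 and Msx2. Of these, 9 had a probe set paired with that gene symbol alone, out of 22180 genes on the array with such a probe set. Msx1 was covered by 2 probe sets that also carry other symbols, so no value is given for it. Each of the 9 measured genes had a single probe set.

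RNA was taken from 3 cultures of mouse pluripotent cells, all from the established mouse embryonic stem cell (mESC) line EB3, and each was hybridised to 1 Affymetrix Mouse Gene 2.0 ST array. Every culture was grown in N2B27, a defined medium without serum, and no BMP ligand was among the factors named in the labels. The Activin+PD culture was kept for 64 days in 20 ng/ml Activin A, whose receptors act on SMAD2 and SMAD3, plus 2 µM PD0325901, an inhibitor of the ERK kinase MEK. The 2i culture was kept for 34 days in 2 µM PD0325901 plus 2 µM CHIR99021, an inhibitor of GSK3. The epiblast stem cells (mEpiSCs) were derived in culture from EB3 mESCs rather than from an embryo, and were grown with 12 ng/ml bFGF plus 20 ng/ml Activin A. How long the mEpiSCs had been kept was not stated in the sources used here.

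BMP ligands bind pairs of type I and type II receptor kinases, which phosphorylate SMAD1, SMAD5 and SMAD9. These receptor SMADs join SMAD4 and enter the nucleus, where the Id genes, Smad6 and the Msx genes are among the classical targets. Id proteins have a helix-loop-helix but no DNA-binding region. They pair with E proteins and keep them from binding DNA with lineage factors, and in mESCs BMP4 and Id proteins are known for holding back neural differentiation. SMAD6 feeds back on the pathway by blocking its receptors and SMADs.

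The arrays were alike in brightness, with a median intensity between 50.9 and 51.9, and between 13330 and 13767 of the genes lay above background on each array. Background here was the 95th percentile over 1400 probe sets for odorant and pheromone receptors (olfactory and vomeronasal families), which came to a log2 intensity of 5.59 in 2i, 5.57 in mEpiSCs and 5.51 in Activin+PD. With 1 array per group there was no replicate spread and no test, so "higher" and "lower" describe these arrays. As a yardstick, the spread of 1 probe set was taken from 497 genes with at least 2 probe sets above background. The gap between the array differences of the 2 brightest was found for each gene. Its standard deviation was divided by the square root of 2. On the log2 scale this gave 0.24 between the mESC cultures, 0.33 between mEpiSC and 2i, and 0.30 between mEpiSC and Activin+PD. That spread holds probe set error and not the variation between cultures. All 5 naive markers (Zfp42, Klf4, Esrrb, Tfcp2l1 and Nr0b1) were at least 2-fold lower in mEpiSCs than in either mESC culture, and the primed markers Fgf5, Otx2, Dnmt3b and Pou3f1 were all at least 2-fold higher in mEpiSCs than in 2i. Against Activin+PD, Otx2 was within 2-fold of mEpiSCs at 0.56. Both Otx2 and Fgf5 were higher in Activin+PD than in 2i, by at least 2.22 and by 1.48 on the log2 scale. Pou3f1 and Dnmt3b were within 2-fold between the mESC cultures, at 0.24 and -0.60 for Activin+PD minus 2i. Of the core pluripotency markers, Nanog in mEpiSCs was at -1.995 against 2i and -2.25 against Activin+PD, and Sox2 at -1.17 and -1.39. Pou5f1 was within 2-fold, at 0.15 and 0.30. The tissue label of the mEpiSC sample names mESCs, while its title names mEpiSCs.

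Id2 and Id4 stood at opposite ends. Id2 was 6.45-fold higher in mEpiSCs than in 2i and 4.66-fold higher than in Activin+PD, whereas Id4 was 5.58-fold and 4.35-fold lower. Msx2 was also lower in mEpiSCs, by a measured 3.78-fold against 2i and 2.39-fold against Activin+PD, with its mEpiSC level at background. Id1, Id3, Smad1 and Smad5 differed by at most 1.35-fold between any of the arrays. No member differed 2-fold between the 2 mESC cultures, and only 2.20% of all genes compared did. The widest gaps of members there were those of Bmp4, lower in Activin+PD, and Smad6, higher in Activin+PD.

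The bases before the transcription start are shown for the 3 members that differed at least 2-fold and, beside them, for Id3, an Id gene that did not. They are the 250 bases before the start from RefSeq promoter windows on build GRCm38.p6, 5′ to 3′ on the gene's strand. Capitals mark GGCGCC, a GC-rich element that SMAD1 and SMAD5 bind, and CAGAC or its reverse GTCTG, the SMAD box.
Id2 (chr12:25096093-25096342, minus strand): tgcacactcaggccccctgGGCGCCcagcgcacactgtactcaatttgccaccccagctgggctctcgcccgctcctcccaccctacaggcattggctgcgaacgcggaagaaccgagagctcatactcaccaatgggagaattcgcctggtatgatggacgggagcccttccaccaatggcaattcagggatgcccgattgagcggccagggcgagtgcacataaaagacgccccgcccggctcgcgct
Id4 (chr13:48260866-48261115, plus strand): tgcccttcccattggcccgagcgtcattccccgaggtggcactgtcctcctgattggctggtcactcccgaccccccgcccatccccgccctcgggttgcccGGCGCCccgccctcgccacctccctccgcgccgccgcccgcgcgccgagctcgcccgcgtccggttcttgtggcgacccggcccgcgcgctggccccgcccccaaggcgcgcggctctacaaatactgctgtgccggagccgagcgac
Msx2 (chr13:53472781-53473030, minus strand): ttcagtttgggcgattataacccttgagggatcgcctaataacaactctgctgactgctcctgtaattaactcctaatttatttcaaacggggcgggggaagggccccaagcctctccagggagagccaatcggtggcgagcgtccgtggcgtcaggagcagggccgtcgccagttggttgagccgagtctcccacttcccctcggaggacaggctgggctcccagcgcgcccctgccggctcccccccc
Id3 (chr4:136143572-136143821, plus strand): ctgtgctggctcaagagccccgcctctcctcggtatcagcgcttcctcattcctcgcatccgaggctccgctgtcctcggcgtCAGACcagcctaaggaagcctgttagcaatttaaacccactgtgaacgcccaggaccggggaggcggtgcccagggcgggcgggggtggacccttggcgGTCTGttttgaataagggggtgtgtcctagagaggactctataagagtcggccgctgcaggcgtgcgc

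Id2 and Id4, the pair with opposite patterns, each held 1 copy of GGCGCC, ending 226 and 143 bases before the start. Id3 held 2 SMAD boxes, ending 163 and 64 bases before the start, and Msx2 held neither element. Both strands were searched, and among 32841 RefSeq windows of this length 9.59% held GGCGCC and 42.2% held CAGAC. The E box CANNTG, the site of helix-loop-helix pairs, was found once in Id2 and once in Msx2 and not in Id3 or Id4, and 66.2% of all windows held it. CANNTG did not overlap the other elements in these windows. Windows were matched for 9 of the 10 members, all but Id1. Bmp4 held 3 E boxes and no SMAD element, and neither Smad6 nor Smad1 held any of the 3 motifs. Smad5 has 3 windows, of which the second held GGCGCC and the third CAGAC, and the first and second held an E box, while Msx1 held an E box alone. The windows of the matched members had a GC content of 60.0% to 75.6%, highest in Id4, against a median of 52.4% over all windows. A match in these letters describes the sequence and is not a measured binding site.

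Among the Id genes, Id2 had a deposited intensity of 97.5 in Activin+PD, 70.6 in 2i and 455.0 in mEpiSCs, or 6.61, 6.14 and 8.83 on the log2 scale. The mEpiSC value stood far above both mESC values. Set against 2i, the log2 difference of the mEpiSC array was 2.69, and 57 of the 14200 genes compared had a more positive one. Against Activin+PD the difference was 2.22, exceeded by 83 of 14375 genes. Activin+PD lay above 2i by 0.47, which is past the probe set spread of 0.24 and well short of 2-fold. The 2i value was dim. With values raised to the 99th percentile of the receptor probe sets, a setting chosen after seeing the data, this gap was 0.066. Id2 is the Id gene known for roles in lymphoid and mammary cells and as a partner of the retinoblastoma protein.

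Id4, which is known in neural progenitors and spermatogonial stem cells, ran the other way. Its intensity was 272.8 in Activin+PD, 350.0 in 2i and 62.7 in mEpiSCs, and its log2 levels were 8.09, 8.45 and 5.97. Both mESC arrays were high, and the mEpiSC level was 0.40 above background on the log2 scale. Compared with 2i, the mEpiSC array differed by -2.48, with 112 genes more negative, and compared with Activin+PD by -2.12, with 171 more negative. Between the mESC cultures it was -0.36 for Activin+PD minus 2i.

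The remaining Id genes were dim on every array. Id1, the most widely used readout of BMP signalling, was at 5.72 in 2i, 5.63 in Activin+PD and 6.06 in mEpiSCs on the log2 scale. These values were 0.13, 0.12 and 0.48 above background, so Id1 was just measurable in the mESC cultures. The largest difference of Id1 was 0.43, for mEpiSC minus Activin+PD. Id3, a close relative of Id1 that often shares its expression, was at 6.30 in Activin+PD, 6.23 in 2i and 6.01 in mEpiSCs on the log2 scale. Its differences from 2i were 0.070 for Activin+PD and -0.21 for mEpiSC, both within the probe set spread. With background set at the 99th percentile of the receptor probe sets, neither Id1 nor Id3 was above it on any array, nor were Id2 and Smad6 in 2i or Id4 and Msx2 in mEpiSCs. Against that stricter limit, a setting chosen after seeing the data, Id2 in mEpiSCs was higher than 2i by at least 2.29 on the log2 scale. The bounds for Id4 became -2.03 for mEpiSC against 2i and -1.67 against Activin+PD, still past 2-fold.

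**Figure D1:**
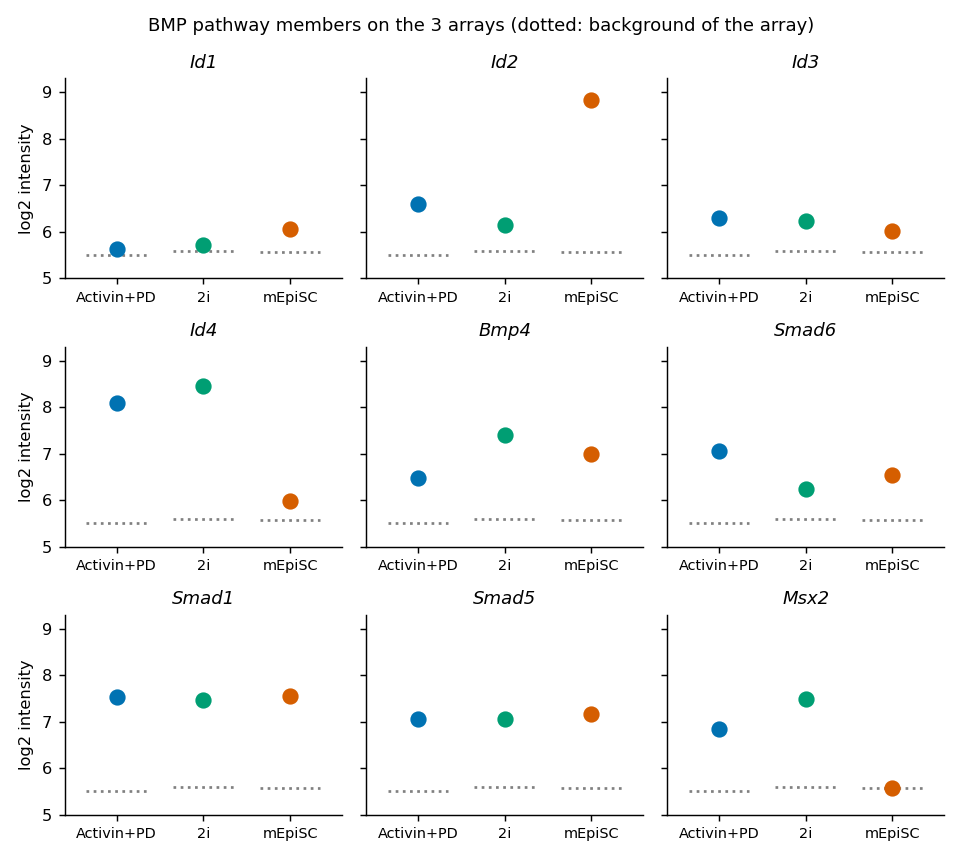
Log2 intensity of each measured member (1 panel per gene) on the 3 arrays, 1 point each, with the background of each array as a dotted line. Id2 is highest in mEpiSCs at 8.83, Id4 and Msx2 are lowest there at 5.97 and 5.58, and Smad1 and Smad5 are level across the arrays.

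The ligand gene Bmp4 had an intensity of 88.8 in Activin+PD, 167.7 in 2i and 128.1 in mEpiSCs. All values were above background, in the order 2i, mEpiSC, Activin+PD. On the log2 scale Activin+PD lay 0.92 below 2i, or 1.89-fold, and 140 of 14003 genes had a more negative difference in that comparison. The mEpiSC array lay 0.39 below 2i, close to the probe set spread of 0.33 for that pair, and 0.53 above Activin+PD. Subtracting 16 from every deposited intensity before taking logs moved the Activin+PD difference to -1.06, past 2-fold.

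Smad1 and Smad5, which carry the BMP signal from the receptors, were the flattest of the members. Smad1 stood at 7.54 in Activin+PD, 7.48 in 2i and 7.56 in mEpiSCs on the log2 scale, a range of 0.077. Smad5 stood at 7.06, 7.05 and 7.16, a range of 0.11. All 6 differences of this pair were within the probe set spread, and across the 14526 genes above background on any array the median range was 0.34. An mRNA level says nothing of the phosphorylation on which the activity of these proteins depends, which was not measured.

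Smad6 followed the opposite order to Bmp4. It stood at 7.05 in Activin+PD, 6.25 in 2i and 6.53 in mEpiSCs on the log2 scale, with intensities of 132.8, 76.0 and 92.5. Activin+PD was higher than 2i by 0.81 or 1.75-fold, and 337 of 14003 genes had a more positive difference. The mEpiSC array differed from 2i by 0.28, within the probe set spread, and from Activin+PD by -0.52.

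Msx2, a homeobox transcription factor gene of limb, tooth and neural crest, had the lowest mEpiSC difference among the members after Id4. Its intensity was 114.6 in Activin+PD, 180.9 in 2i and 47.9 in mEpiSCs, where background was 47.6. The mEpiSC level was therefore at background, and the mESC levels were 1.34 and 1.91 above theirs on the log2 scale. The measured mEpiSC differences, -1.92 from 2i and -1.26 from Activin+PD, are read as lower limits on the size of the gap. With the 99th percentile as background the limits were -1.08 and -0.42, so the gap from Activin+PD no longer reached 2-fold. Activin+PD was lower than 2i by 0.66. Msx2 and Id4 thus shared the order 2i, Activin+PD, mEpiSC.

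**Figure D2:**
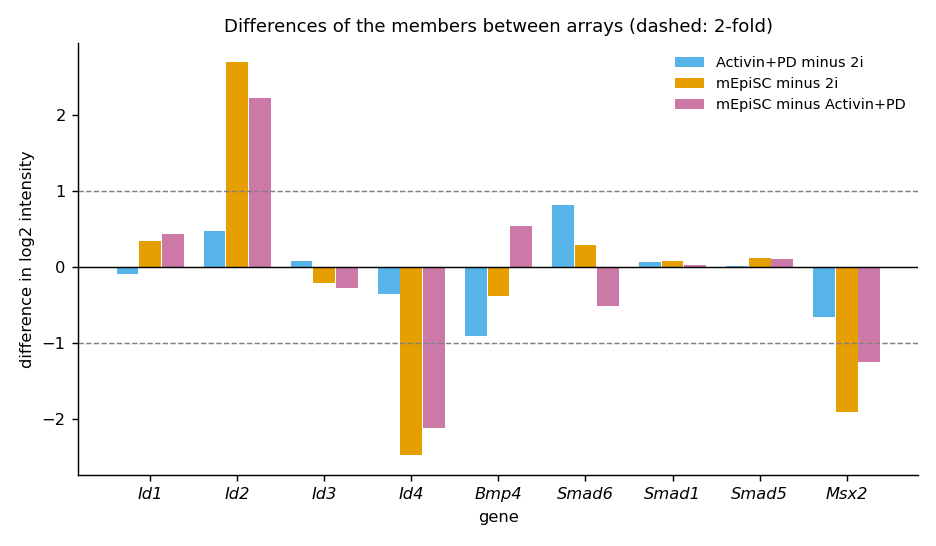
Difference in log2 intensity for the 9 measured members (bars, 3 comparisons each, first-named array minus second), with dashed lines at 2-fold. Id2 passes the upper line and Id4 and Msx2 the lower line in both mEpiSC comparisons, and no bar of Activin+PD minus 2i passes either line.

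The counts of members at least 2-fold apart are set here beside those of all genes. For Activin+PD minus 2i, 0 of 9 members were at least 2-fold apart, against 2.20% of 14003 genes (1.38% higher and 0.821% lower). A count of 0 among 9 genes is near that share. For mEpiSC minus 2i, 1 member was higher and 2 were lower, against 9.50% of 14200 genes apart (4.54% higher and 4.96% lower). For mEpiSC minus Activin+PD the members' counts were again 1 and 2, against 8.97% of 14375 genes apart (3.59% higher and 5.38% lower). The members' median differences were 0.0098, 0.077 and 0.019 in these comparisons, beside -0.0056, 0.031 and 0.042 over all genes compared. The 3 comparisons share arrays in pairs, so the last follows from the first and second and adds no independent value. These counts rest on bulk RNA, in which fewer cells that express a gene and less RNA per cell cannot be told apart.

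**Figure D3:**
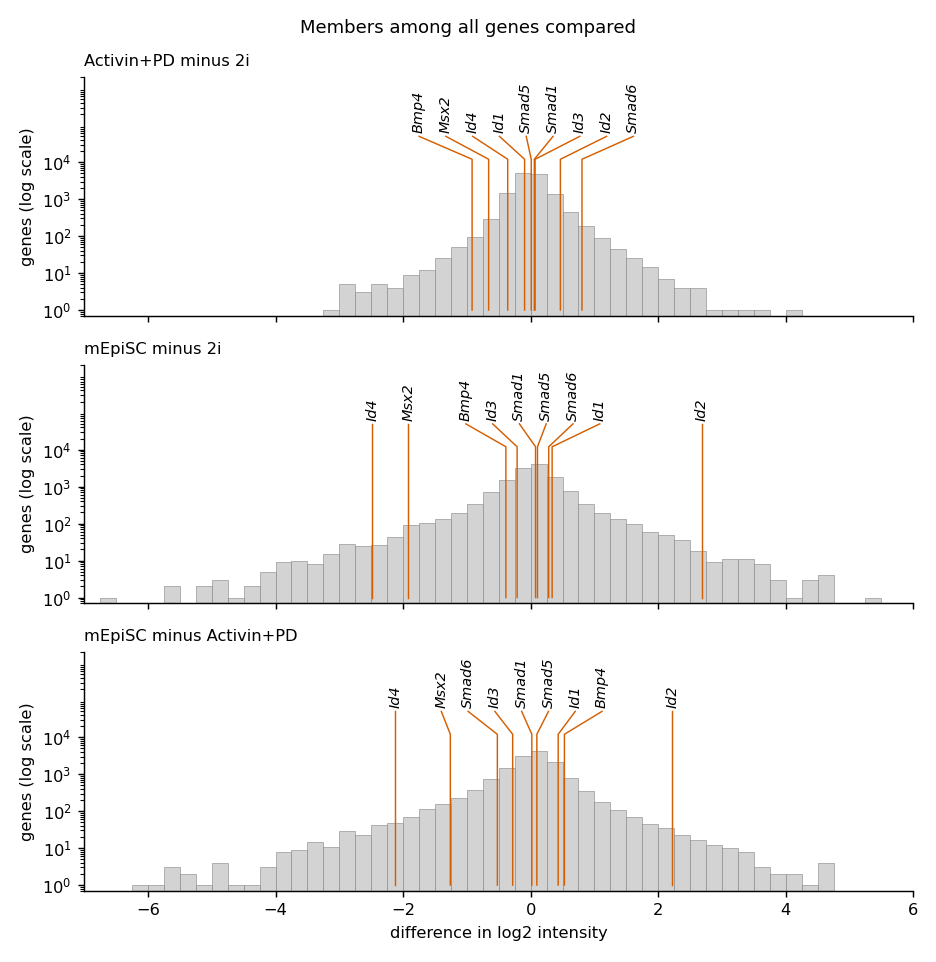
Number of genes (log scale) by difference in log2 intensity for all genes compared, in bins of 0.25, with an orange line at each member. Id2 lies in the upper tail and Id4 and Msx2 in the lower tail of both mEpiSC comparisons, and all 9 members lie between -0.92 and 0.81 for Activin+PD minus 2i.

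Genes whose profile over the 3 arrays lay nearest to that of a member were found by the Euclidean distance between log2 profiles centred on their means, among genes with a mean level within 1 of the member. For Id2 they were Ugt8a, a galactolipid synthesis enzyme (distance 0.12), the Wnt ligand gene Wnt3 (0.13) and Spry4, a feedback inhibitor of ERK signalling (0.15). Wnt3 stood at 6.14, 5.83 and 8.52 in Activin+PD, 2i and mEpiSCs on the log2 scale. For Id4 they were Tfpi, an inhibitor of coagulation (0.052), the predicted gene Gm14124 (0.060) and the lysosomal hexosaminidase gene Hexa (0.095). For Msx2 they were the predicted gene Gm4349 (0.063), the small heat shock protein gene Hspb8 (0.072) and the zinc finger gene Tshz3 (0.081). With 3 arrays many genes can share a profile, and between 5981 and 7582 genes were searched for each member. The distances used values below background as they were. Such values were those of Tfpi, Hexa and Gm4349 in mEpiSCs and of Spry4 in 2i.

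The rest of the pathway was read from 5 lists holding 66 genes, of which 62 were on the array. Between the mESC cultures, 54 genes were compared. The Activin+PD array was 2-fold or more above 2i for 5 and below it for 1, beside 1.38% and 0.821% of all genes. The 5 became 4 with the mean of all probe sets and 3 with values raised to the 99th percentile background. Between mEpiSCs and 2i, 5 of 52 were higher in mEpiSCs and 4 lower, beside 4.54% and 4.96% of all genes. Between mEpiSCs and Activin+PD, 2 of 54 were higher in mEpiSCs and 5 lower, beside 3.59% and 5.38%, and with 16 subtracted from each intensity 5 were higher and 5 lower. The median differences were 0.083, 0.17 and 0.16, beside the medians of all genes given above. No ligand or signalling receptor gene was among those 2-fold apart.

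Of 13 other BMP ligand genes, between 8 and 9 were bright enough to compare, and 0 of these were 2-fold apart in any comparison. Bmp7, which signals like Bmp4 through SMAD1 and SMAD5, stood at 8.28 in 2i, 8.27 in mEpiSCs and 7.68 in Activin+PD on the log2 scale. It was lower in Activin+PD than in 2i by 0.61, the same direction as Bmp4. Bmp2, the closest relative of Bmp4, was not above background in Activin+PD, was just above it in 2i and stood at 6.30 in mEpiSCs, a difference of 0.70 from 2i.

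Antagonists bind BMPs or related ligands outside the cell, and 3 of 12 compared genes were at least 2-fold higher in mEpiSCs than in 2i and 0 lower, beside 4.54% higher and 4.96% lower over all genes. Cer1, a secreted inhibitor of Nodal, BMP and Wnt ligands, had an intensity of 854.3 in mEpiSCs and was not above background in either mESC culture. Its mEpiSC level was higher by at least 4.15 than 2i and at least 4.23 than Activin+PD on the log2 scale, each bound being the mEpiSC value minus the background of the other array. Fst, whose product follistatin traps Activin and some BMPs, stood at 77.4 in Activin+PD, 117.7 in 2i and 974.4 in mEpiSCs, a log2 difference of 3.05 from 2i. Chrd, which encodes the BMP-binding protein chordin, just reached 2-fold in mEpiSCs against 2i at 1.002, and Nog, which encodes noggin, was below background in 2i and differed by 0.25 between mEpiSCs and Activin+PD. Chrdl1, a chordin relative, was above background in Activin+PD alone, by at least 1.02 against 2i and at least 1.04 against mEpiSCs.

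None of the signalling receptor genes reached 2-fold in any comparison. They are few, and between 2.20% and 9.50% of all genes were apart, depending on the comparison. Bmpr1a, the type I receptor gene for BMP2 and BMP4, was at 7.89 in Activin+PD, 8.02 in 2i and 8.28 in mEpiSCs on the log2 scale. Bmpr2, the type II receptor gene, stood at 8.97, 8.73 and 9.73, and its difference of 0.999 for mEpiSC minus 2i fell just short of 2-fold and was past the probe set spread of 0.33. Acvr1, another type I receptor gene, differed by at most 0.27 between arrays. The co-receptors differed more. Eng, which encodes endoglin, had intensities of 883.4 and 893.6 in Activin+PD and 2i and 126.8 in mEpiSCs, a log2 difference of -2.82 from 2i. Tgfbr3, which encodes betaglycan, was at 116.2 in Activin+PD, 656.7 in 2i and 194.9 in mEpiSCs, so the 2i array stood alone. Bambi, a pseudoreceptor that dampens BMP and TGF-beta signals and is itself a BMP target, was at 7.56, 8.17 and 8.16 on the log2 scale.

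Smad4, the shared partner of all receptor SMADs, was at 9.96 in Activin+PD, 10.08 in 2i and 10.34 in mEpiSCs on the log2 scale. Smad9, the other BMP receptor SMAD gene, was just above background in the mESC cultures and not above it in mEpiSCs. The inhibitory Smad7 was higher in Activin+PD than in 2i by 1.05, the same direction as Smad6. Of the regulators, Skil, a SMAD corepressor gene, was higher in mEpiSCs than in 2i by 1.24 and Zfp423, a cofactor of BMP-activated SMADs, by 1.01, whereas Tob1, an antiproliferative SMAD-binding protein, stood at -1.27.

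Of 12 measured genes on the list of other BMP-responsive genes, Gata3, Prdm1 and Dusp9 were higher in Activin+PD than in 2i by 1.56, 1.17 and 1.04. These 3 higher and 0 lower at 2-fold stand beside 1.38% higher and 0.821% lower over all genes. A second probe set of Gata3 gave 0.18. Gata3 and Prdm1 are transcription factor genes of trophectoderm and germ cell development, and Dusp9 encodes an ERK phosphatase that BMP4 induces in mESCs. Tbx3, a T-box factor of the naive network, was at 10.36 and 10.26 in Activin+PD and 2i and 6.20 in mEpiSCs on the log2 scale, a difference of -4.06 from 2i and -4.15 from Activin+PD, the widest on the list. These genes also answer to other signals. Msx3, related to the Msx members, was at 6.04, 6.19 and 6.16.

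Id proteins pair with the E proteins. The E protein genes Tcf3, Tcf4 and Tcf12 had 0 of 3 at 2-fold in every comparison. Between 2.20% and 9.50% of all genes were apart, depending on the comparison, so 0 of 3 is near that share. On the log2 scale, Tcf3 was at 9.65, 9.70 and 9.73 and Tcf12 at 8.98, 9.54 and 9.15 in Activin+PD, 2i and mEpiSCs. Tcf12 was lower in Activin+PD than in 2i by 0.56, past the probe set spread of 0.24. Among 15 measured tissue-restricted helix-loop-helix genes, Twist1, a mesenchymal factor, was higher in mEpiSCs than in 2i by 1.52. Neurog3, a factor of endocrine pancreas, had an intensity of 168.2 in 2i and 72.2 in Activin+PD. On the mEpiSC array it was below background, which puts its difference from 2i at -1.82 or lower. The other genes were within 2-fold where compared, among them Hes1, a Notch target, at 8.46, 7.95 and 8.80.

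**Figure D4:**
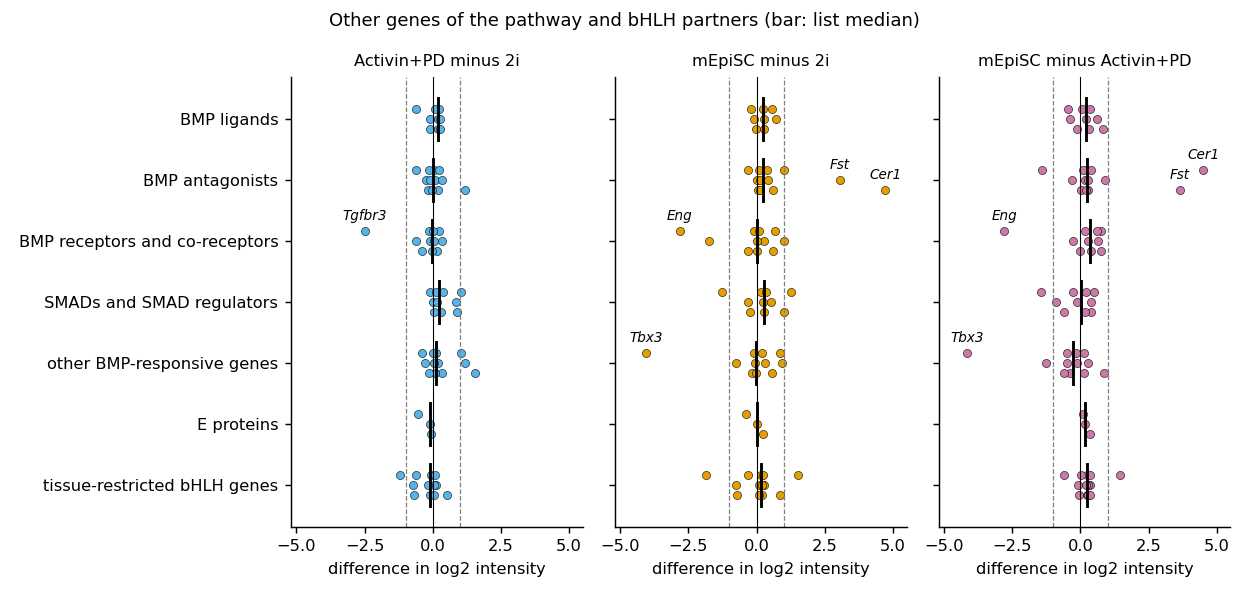
Difference in log2 intensity (horizontal) of the other pathway genes and helix-loop-helix partners above background on the brighter array, 1 point per gene and 1 row per list, with the list median as a black bar and 2-fold as dashed lines. Cer1 and Fst stand far to the right and Eng and Tbx3 far to the left in both mEpiSC comparisons, and Tgfbr3 stands to the left for Activin+PD minus 2i.

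Markers of other cells that can express these genes were read on the same arrays. The mesoderm markers Mesp1, Kdr, Foxf1, Tbx6 and Hand1 were within 2-fold wherever compared, Mesp1 being below background in both mESC cultures, with summed intensities of 288.5 in Activin+PD, 302.6 in 2i and 295.1 in mEpiSCs. Of 7 fibroblast markers, 4 were above background on each array, with sums of 372.5, 361.9 and 438.3, and Dcn, Lum and Postn were not above it on any. The extraembryonic endoderm markers summed to 287.9, 286.2 and 434.8, with Gata6 higher in mEpiSCs by at least 1.498 against 2i and 3 of the 5 above background in each mESC culture and 4 in mEpiSCs. For trophectoderm 4 of 5 markers were above background on each array, Elf5 was not above it on any, and the sums were 544.6, 389.5 and 351.2. Gata3 gave 208.9 of the Activin+PD sum and 71.0 of the 2i sum, and its second probe set differed by 0.18 on the log2 scale. Krt7, Tfap2c and Hand1 were within 2-fold between the mESC cultures. In mEpiSCs Tfap2c was lower, at -1.06 against 2i and -1.11 against Activin+PD, while Krt7 and Hand1 stayed within 2-fold. Gata3 in mEpiSCs was at -1.25 against Activin+PD, and at -0.22 on its second probe set. All sums in this paragraph include markers below background. The 4 measured neural markers were all above background, with sums of 952.6, 539.1 and 832.2, led by Tubb3 in Activin+PD and Nes in mEpiSCs. Tubb3 stood at 1.32 for Activin+PD minus 2i. In mEpiSCs Tubb3 was lower, at -1.18 against 2i and -2.50 against Activin+PD, while Nes was higher, at 1.92 and 1.97. Sox1 and Pax6 were within 2-fold in every comparison. The part of such cells in the values of Id2, Id4 and Msx2 was not tested.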

How the data were processed

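The deposited table held 1 intensity per probe set and array, on a linear scale as judged from its values. GeneSpring GX 11.5 is named by the series' design text and RMA by the submitters' processing notes; RMA adjusts background, quantile-normalises and summarises probes, which makes array distributions alike and hides a difference in total RNA. A genome build for the probe sets was not stated in the sources used here.

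From these values log2 was taken in Python 3.11.15 with pandas 2.3.3. Of 33793 probe sets, 23521 had 1 symbol, 1814 had several and 8458 were not listed in the platform annotation; 23328 symbols were updated through Entrez identifiers. Each gene was represented by its brightest probe set. A gene was compared where the brighter array was above background and counted at 2-fold or more. Values below background give bounds. The number of arrays, 1 per group, limits the precision, and no test was run. Counting was tested on simulated data, with changes placed only in genes brighter on average than any member. That test does not cover calls on dim genes.

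The members, lists, thresholds and the rule for other named genes (listed genes at least 2-fold apart, plus a fixed set of receptors, SMADs, ligands, antagonists, E proteins and markers) were chosen with earlier results of these data known. Bmp2, Smad9, Msx3 and Hes1 fall outside that rule and were named after their values were seen.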

Additional observations from a re-analysis of the deposited data

How the results depend on the processing

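Over 8 alternatives (quantile normalisation, median centring, subtraction of 16, background at the 99th percentile, values raised to background, the mean of all probe sets, lowess removal and no filter on dim genes), the members at least 2-fold apart numbered 3 in both mEpiSC comparisons throughout. For Activin+PD minus 2i the number went from 0 to 1 when 16 was subtracted, with Bmp4 at -1.06; whether a constant had been added before deposit was not stated in the sources used here. Of the 27 member differences, under these 8 alternatives a sign changed for Smad5 (Activin+PD minus 2i, 0.0098 to -0.016, quantile normalisation) and Smad1 (mEpiSC minus Activin+PD, 0.019 to -0.011, median centring). Across alternatives Id2 ranged from 2.67 to 3.01, Id4 from -2.84 to -2.48 and Msx2 from -2.37 to -1.92 for mEpiSC minus 2i. Several alternatives could not move a member, as each member had a single probe set, above background on every array. These were values raised to background, the mean of all probe sets and no filter. Background at the 99th percentile could change a call but not a difference. RMA already includes quantile normalisation, so that alternative had little room to act. With values raised to the 99th percentile background, chosen after seeing the data, the members apart stayed at 3 for mEpiSC minus 2i and went from 3 to 2 for mEpiSC minus Activin+PD, without Msx2 at -0.42. Counts of other pathway genes and of all genes apart stayed within 1.5 times in both directions together, but subtracting 16 took the pathway genes higher in mEpiSCs than in Activin+PD from 2 to 5 and all genes higher in Activin+PD than in 2i from 193 to 295. Median centring took the pathway genes higher in mEpiSCs than in 2i from 5 to 3. The mean of all probe sets took those higher in Activin+PD than in 2i from 5 to 4. Values raised to the 99th percentile background took that last count from 5 to 3. No paired analysis was possible because each group had 1 array, and no array could be left out. Dim signal limits Id1 and Id3 on every array, Id2 and Smad6 in 2i, and Id4 and Msx2 in mEpiSCs. Under the stricter background Id2 and Smad6 in Activin+PD exceeded 2i by 0.066 and 0.51. Signs changed there for 4 member differences of Id1, Id3 and Smad6 that were within 2-fold.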

Other observations

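Activin+PD was the array on which Bmp4, Bmp7 and Bambi were all lowest, while Smad6, Smad7, Gata3 and Prdm1 were all highest there. These genes were singled out after their values were seen. Against 2i, Bmp4 stood at -0.92, Bmp7 at -0.61 and Bambi at -0.61, all short of 2-fold, while mEpiSC minus 2i gave -0.39, -0.011 and -0.0035. Their mEpiSC levels exceeded Activin+PD by 0.53, 0.60 and 0.61 on the log2 scale. For Smad6, Smad7, Gata3 and Prdm1, mEpiSC minus Activin+PD gave -0.52, -0.89, -1.25 and -0.62, and a second probe set of Gata3 gave -0.22. Genes of the pathway thus stood in both orders over these 3 arrays, and no test was possible with 1 array per culture.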
